A study of Homo sapiens with 4 samples.

Results

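Chromosome 19 carries the densest array of zinc finger genes in the human genome. The protein-coding genes of that chromosome whose symbol is ZNF followed by a number, with at most 1 letter after it, were taken from the deposited count table. They numbered 246 of the 58735 genes listed. Most of these genes arose by tandem duplication and encode a row of C2H2 zinc fingers, which read DNA, behind a KRAB domain. KRAB domains bind TRIM28 (KAP1), a scaffold that brings the histone methyltransferase SETDB1, HP1 proteins and the NuRD complex to chromatin, and these complexes are best known for silencing transposable elements. The same machinery also marks the zinc finger genes themselves, to which ZNF274 recruits SETDB1.

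RNA was sequenced from HCC1954, an established human breast cancer line with amplified ERBB2. Cells with a control hairpin (shCON, 2 samples) were compared with cells carrying a hairpin against ZDHHC15 (shZDHHC15, 2 samples), a palmitoyltransferase, which is an enzyme that attaches palmitate to proteins. All cells were harvested at 36 h and differed by the hairpin alone, as far as the labels tell. In the labels the knockdown is called stable, while the treatment text has plasmids delivered by a transient lipid transfection. The hairpins came in lentiviral vectors, and monoclonal cultures are mentioned in the study's supplement. Whether the replicates were separate cultures, clones or hairpins is not stated, so p-values measure the spread between these samples, which may be technical.

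The samples held between 17560982 and 19118704 counts, and shCON replicate 2 was the shallowest. ZDHHC15 had 17617 and 15716 counts in shCON and 0 counts in both shZDHHC15 samples, where 3 counts set the detection floor. The 7 genes taken as markers of the line were detected in all samples, at a summed 16500 and 17700 CPM in shCON against 10300 CPM in both shZDHHC15 samples. ERBB2 had 101910 and 100029 counts in shCON and 93750 and 92598 in shZDHHC15 and was called lower. The keratin gene KRT8 had 105283 and 106976 counts against 34507 and 40916. GRB7, EPCAM and KRT18 were also called lower. CDH1 was not called, and KRT19 was called higher, with 343 and 339 counts against 503 and 506. The leukocyte markers PTPRC, CD3E, CD68 and LYZ had at most 7 counts each. The estrogen receptor gene ESR1, which is low in this line, was not at 0 and had 161 and 103 counts in shCON against 308 and 305 in shZDHHC15. Of 3 endothelial markers PECAM1 and CDH5 were detected and VWF was at 7 counts or fewer, and their summed level was 48.4 and 50 CPM (counts scaled to library size) in shCON against 102 and 96.7 in shZDHHC15. That of 4 fibroblast markers ranged from 5.76 to 7.17 CPM in shCON and from 8.41 to 11.5 CPM in shZDHHC15, with COL3A1 and DCN at 1 count or fewer. Nearly all of this sum came from COL1A1, which was called higher. The part of these shifts in the results on zinc finger genes was not tested.

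As a group the zinc finger genes were weakly expressed. Of the 246 genes, 191 passed the filter on low counts, and 55 did not. Among the latter, 33 had at most 3 counts in every sample and 16 had none at all. The highest count of an excluded gene in any sample was 28. Together the 246 genes took 0.199% and 0.175% of the counts in shCON and 0.189% and 0.194% in shZDHHC15. The median level of the tested members was 6.38 CPM, against 18.2 CPM over all 15817 tested genes.

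Chromosome 19 ZNF genes moved in both directions in about equal numbers, and a smaller share of them was called than of all genes. With edgeR's quasi-likelihood test and an adjusted p under 0.05, 25 of the 191 (13.1%) were higher and 26 (13.6%) were lower in shZDHHC15. Over all genes tested, 21.7% were higher and 20.3% were lower. A higher call applied to 28 and a lower call to 17 members when only library size was used for scaling. That scaling shifted all tested genes in the same direction, to 3926 higher and 2546 lower from 3427 and 3217 in the main fit. The median log2 fold change of the members was 0.16, with quartiles of -0.14 and 0.37, while it was 0.02 over all tested genes. When tested genes were split into 3 bins of equal size by level, 22.8% of members in the lowest bin were called against 25.1% of all genes in it, and in the middle bin 28.4% against 43.5%. Only 4 members lay in the highest bin. A fold change above 0 was found for 120 members (62.8%) against 51.2% of all tested genes.

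The separation between groups showed a similar asymmetry. Both shZDHHC15 samples lay above both shCON samples for 70 members (36.6%, against a background of 37.2%), and below them for 44 members (23%, against 35.3%). The sum of the members went the other way from their median, at 2020 and 1820 CPM in shCON and 1850 and 1890 CPM in shZDHHC15. These sums overlapped between the groups. The 5 members with the highest level per length, described further on, were lower in shZDHHC15.

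The median above 0 depended on shCON replicate 2. The median deviation of the 191 members from their own 4-sample mean was 0.05 and -0.14 in shCON and 0.07 and 0.05 in shZDHHC15, on a log2 scale with 0.5 CPM added. Thus shCON replicate 1 lay with the shZDHHC15 samples and shCON replicate 2 lay below them. Without shCON replicate 2 the median log2 fold change of the members was 0.03, against 0.00 over all tested genes. Without shCON replicate 1 it was 0.21, against 0.01. Leaving out shZDHHC15 replicate 1 gave 0.12, against 0.02, and leaving out shZDHHC15 replicate 2 gave 0.15, against 0.01. Calls that were kept under all 14 alternative settings numbered 8 among the higher members (ZNF440, ZNF100, ZNF91, ZNF792, ZNF83, ZNF28, ZNF160 and ZNF579) and 6 among the lower ones (ZNF699, ZNF576, ZNF45, ZNF581, ZNF787 and ZNF71). Of the other genes described here, ZNF43 and ZNF426 kept their calls whichever sample was left out, and ZNF85, ZNF790, ZNF850, ZNF574, ZNF784, ZNF749, ZNF114 and ZNF837 kept theirs in 3 of the 4 such fits. ZNF441, ZNF700, ZNF675, ZNF714, ZNF146, ZNF296, ZNF773 and ZNF154 kept theirs in 2, and ZNF556, ZNF708 and ZNF345 in 1. ZNF181, ZNF486 and ZNF816 kept theirs in none.

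**Figure D1:**
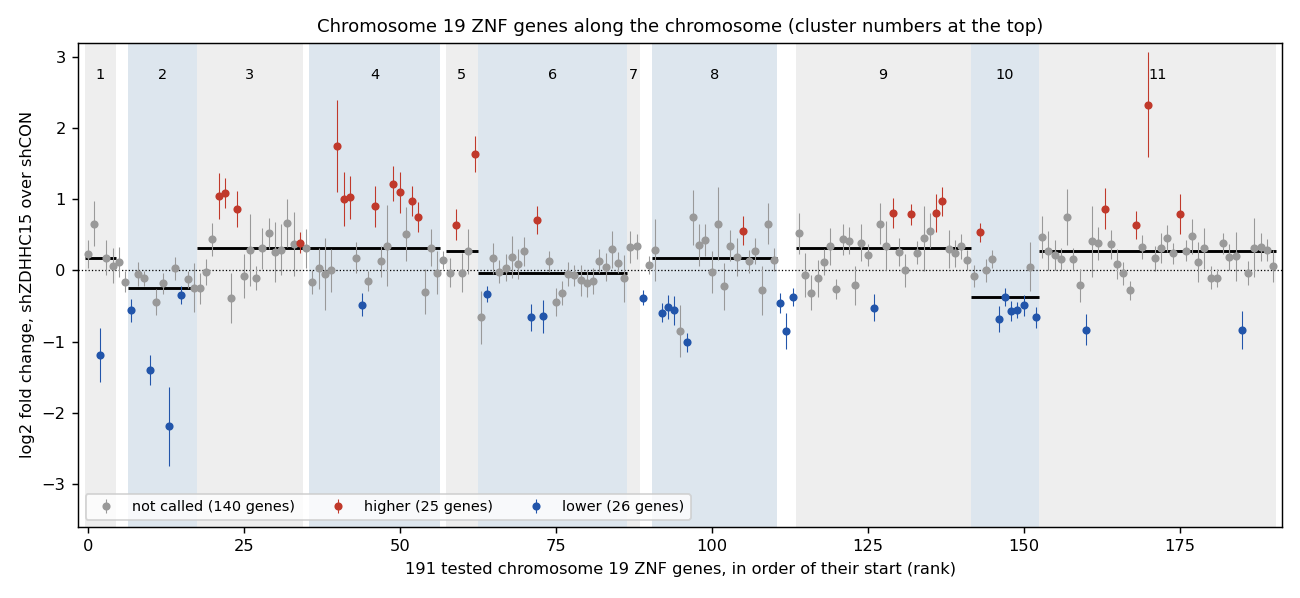
The log2 fold change (shZDHHC15 over shCON, vertical axis) of the 191 tested chromosome 19 ZNF genes is plotted by their rank along the chromosome, with bars of 1 standard error, coloured by call (25 higher, 26 lower), with clusters 1 to 11 shaded and the cluster medians as black lines. Cluster 4 holds 8 of the 25 higher calls and cluster 10 holds 6 of the 26 lower calls.

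Neighbouring members were grouped into clusters wherever their starts lay at most 500 kb apart. This gave 11 clusters of at least 3 genes, which held 235 members, and left 11 isolated genes. Positions are those of the deposited table, whose build is hg38 per the submitters' processing notes. The median fold change was above 0 in 8 clusters and below 0 in 3. The summed CPM of a cluster lay above both shCON samples in both shZDHHC15 samples for 7 clusters and below for 3. A comparison of 2 against 2 samples cannot give an exact two-sided permutation p under 0.333, so these sums are described without a test.

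Cluster 4 (chr19:19668796-24129961, ZNF101 to ZNF254) held the most higher calls. It lies next to the centromere on the short arm and is rich in primate-specific genes. Of 37 listed genes 21 were tested, of which 8 were higher (38.1%, against 21.7% of all genes) and 1 was lower (4.76%, against 20.3%). Its summed level was 107 and 85.2 CPM in shCON and 110 and 116 CPM in shZDHHC15, so that shCON replicate 1 lay just under the shZDHHC15 samples. The median log2 fold change was 0.32, but it was 0.09 without shCON replicate 2 and 0.64 without shCON replicate 1.

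ZNF91, which silences SVA retrotransposons, was the member of cluster 4 with the longest finger array found among the named genes, 32 fingers (chr19:23304991-23395560, minus strand). It had 179 and 91 counts in shCON and 280 and 299 in shZDHHC15. The groups did not overlap, although the 2 shCON samples differed widely. Its log2 fold change was 0.98 (SE 0.21, adjusted p = 0.00174), and it was 0.62 without shCON replicate 2 and 1.47 without shCON replicate 1.

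ZNF100 (chr19:21722766-21767628, minus strand) gave the smallest adjusted p in the cluster. It had 53 and 38 counts in shCON and 106 and 125 in shZDHHC15, a log2 fold change of 1.22 (SE 0.241, adjusted p = 9.47e-04). Both shZDHHC15 samples were well above the shCON samples. Its neighbour ZNF43 had 31 and 27 counts against 59 and 77, with a log2 fold change of 1.10. For ZNF85 the counts were 28 and 25 against 51 and 67, with a log2 fold change of 1.03. ZNF708 had 34 and 25 counts in shCON and 58 and 62 in shZDHHC15, with a log2 fold change of 0.90. In each of these 3 genes the groups were apart and the adjusted p lay between 0.00694 and 0.0226. ZNF714 moved the opposite way, from 336 and 242 counts to 207 and 244, with a log2 fold change of -0.48 (adjusted p = 0.0271). No KRAB pattern was found in its annotated coding sequence.

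The promoters of cluster 4 were closely related, and they are shown because members that moved in opposite directions shared them. RefSeq promoters of 300 bases (250 before and 50 after the start, GRCh38.p14) were matched by symbol for 215 of the 246 members. The most widely shared run of 16 bases stood in 14 of the 29 matched promoters of cluster 4 (48.3%), and in no other promoter of the 35116 in the RefSeq table (14 in all, 0.0399%). Of the 14 genes 9 were tested, with 3 higher (ZNF85, ZNF91 and ZNF675), 1 lower (ZNF714) and a median log2 fold change of 0.32, the same as the whole cluster. The run was chosen after the data were seen. It is in capitals in the following windows of 100 bases, written 5′ to 3′ on the gene's own strand. In order they are chr19:20923081-20923180 (plus strand), chr19:23395548-23395647 (minus strand), chr19:23687254-23687353 (minus strand) and chr19:21082027-21082126 (plus strand).
ZNF85: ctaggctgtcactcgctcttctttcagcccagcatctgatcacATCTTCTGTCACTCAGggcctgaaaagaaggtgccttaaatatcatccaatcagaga
ZNF91: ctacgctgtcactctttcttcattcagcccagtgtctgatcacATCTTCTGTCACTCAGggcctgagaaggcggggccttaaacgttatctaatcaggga
ZNF675: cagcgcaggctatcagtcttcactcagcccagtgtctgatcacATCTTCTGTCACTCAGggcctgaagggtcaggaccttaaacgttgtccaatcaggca
ZNF714: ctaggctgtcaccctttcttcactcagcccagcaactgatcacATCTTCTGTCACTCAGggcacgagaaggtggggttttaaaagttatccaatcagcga
Aligned on that run without gaps, the ZNF714 window was identical to that of ZNF91 at 86 of 100 bases and to that of ZNF85 at 82. It shared 72 bases with that of ZNF675. Among the 3 genes that rose, the pairs of windows were identical at 74, 82 and 85 bases.

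A second motif marked many of the family's promoters. The letters CCGGAAG, which ETS family factors recognise, were searched on both strands. They stood in 96 of 215 member promoters (44.7%) and in 10.3% of all promoters. They were present in 13 of 23 promoters of higher members (56.5%), in 3 of 23 of lower members (13%) and in 59 of 126 of members that were not called (46.8%). The CCAAT box, searched as CCAAT on both strands, stood in 116 of 215 member promoters (54%) and in 34.6% of all promoters. It was present in 17 of 23 promoters of higher members (73.9%) and in 6 of 23 of lower members (26.1%). Among members that were not called it stood in 69 of 126 (54.8%). The share of promoters with either motif varied between clusters. CCGGAAG stood in 21 of 29 matched promoters of cluster 4 (72.4%) and in 27 of 40 of cluster 11 (67.5%), but in 2 of 24 of cluster 3 (8.33%), where every call was higher, and in 6 of 14 of cluster 10 (42.9%), where most calls were lower. CCAAT stood in all 29 matched promoters of cluster 4 and in 22 of 24 of cluster 3, but in 5 of 24 of cluster 6. Of the promoters shown above with the shared run, those of ZNF85, ZNF91 and ZNF675 held CCGGAAG outside the printed windows. That of ZNF714, which fell, did not hold it, and neither did that of ZNF682, a higher member of cluster 4. The following windows of 3 higher members of cluster 4 hold the motif on the reverse strand, written in capitals as CTTCCGG, and lie at chr19:21767580-21767679 (minus strand), chr19:21836190-21836289 (minus strand) and chr19:20167108-20167207 (plus strand).
ZNF100: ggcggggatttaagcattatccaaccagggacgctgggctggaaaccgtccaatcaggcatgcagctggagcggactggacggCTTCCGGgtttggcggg
ZNF43: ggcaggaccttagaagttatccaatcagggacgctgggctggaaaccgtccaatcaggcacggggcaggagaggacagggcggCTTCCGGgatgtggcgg
ZNF486: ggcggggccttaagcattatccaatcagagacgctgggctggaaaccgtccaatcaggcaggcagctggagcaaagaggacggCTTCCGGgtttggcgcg
The windows of ZNF100 and ZNF486 were identical at 90 of 100 bases, and the CCAAT box can be read in each. The RefSeq start of ZNF43 lies 15943 bases from the start in the deposited table. ZNF486 had 14 and 16 counts in shCON and 30 and 36 in shZDHHC15, with a log2 fold change of 1.01 (adjusted p = 0.0444), and its call was lost without any 1 of the 4 samples.

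The motif was rarer among lowered members. ZNF45 (window chr19:43935283-43935382, minus strand, the last 100 bases before the start) had the smallest adjusted p of the lower members and is shown as an example without it, with nothing in capitals.
ZNF45: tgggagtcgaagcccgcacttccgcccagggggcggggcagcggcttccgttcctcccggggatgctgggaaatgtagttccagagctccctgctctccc
The whole 300-base promoter held no CCGGAAG on either strand, although the shorter run CTTCCG can be read in the window. Looser forms of an ETS site were not searched. The median number of CG dinucleotides per promoter was 14 in higher members and 23 in lower members, against 20 in all members and 14 over all promoters. The core of the interferon-stimulated response element stood in 1 of 215 member promoters, and the TEAD motif CATTCC in 33 (15.3%), near the 14% of all promoters.

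Cluster 9 (chr19:51571298-53580269, ZNF175 to ZNF331) had 28 of 39 genes tested, with 4 higher (14.3%, below the 21.7% of all genes) and 1 lower (3.57%, against 20.3%). The higher genes were ZNF83, ZNF28, ZNF816 and ZNF160. ZNF28 had 256 and 183 counts in shCON and 404 and 424 in shZDHHC15, with a log2 fold change of 0.79 (SE 0.151, adjusted p = 7.06e-04). ZNF160 had 103 and 68 counts in shCON against 182 in both shZDHHC15 samples, with a log2 fold change of 0.97 (SE 0.203, adjusted p = 0.00149). Neither gene's groups overlapped. ZNF816 had 36 and 34 counts against 66 and 68, with a log2 fold change of 0.81 (adjusted p = 0.026). Its call was lost without any 1 of the 4 samples, with adjusted p between 0.0606 and 0.0928. The summed level of the cluster was 250 and 182 CPM in shCON and 252 and 261 CPM in shZDHHC15, so that shCON replicate 1 almost reached the shZDHHC15 samples. The cluster median was 0.32, but 0.01 without shCON replicate 2 and 0.60 without shCON replicate 1.

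Cluster 3 (chr19:11483427-12640098, ZNF653 to ZNF791) showed 4 higher genes of 17 tested (23.5%, near the 21.7% of all genes) and none lower, of 25 listed. Its summed level was 68.2 and 60.4 CPM in shCON and 81.4 and 80.9 CPM in shZDHHC15, a ratio of 1.26. ZNF440 had 81 and 62 counts in shCON and 177 and 155 in shZDHHC15. The groups were clearly apart, with a log2 fold change of 1.09 (SE 0.209, adjusted p = 7.53e-04). ZNF441, separated from ZNF440 by the untested ZNF491, had 25 and 20 counts against 55 and 47 (log2 fold change 1.05). ZNF700 had 73 and 42 counts against 97 and 130 (log2 fold change 0.86), and its call was lost without shCON replicate 2 (adjusted p = 0.124). The cluster median was 0.31, and 0.15 without shZDHHC15 replicate 1.

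Cluster 5 (chr19:34677639-34964049, ZNF302 to ZNF792) contained the largest rise of the genes named by rule. ZNF792 had 43 and 28 counts in shCON and 116 and 126 in shZDHHC15. The samples of each group lay close together and far from the other group, with a log2 fold change of 1.64 (SE 0.252, adjusted p = 1.20e-04). ZNF181 was also higher, with 71 and 60 counts against 107 and 116 (log2 fold change 0.64), but this call was lost without any 1 of the 4 samples. All 5 genes of the cluster were tested and none was lower. Its median of 0.27 ranged from 0.18 to 0.54 when 1 sample was left out.

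Cluster 10 (chr19:55476332-56671783, ZNF628 to ZNF835) went the opposite way. Of 11 tested genes of 16 listed, 6 were lower (54.5%, against 20.3% of all genes) and 1 was higher. Its summed level was 257 and 305 CPM in shCON and 225 and 227 CPM in shZDHHC15, a ratio of 0.804. The cluster median was -0.37 and stayed between -0.42 and -0.32 when any 1 sample was left out. The genes here are unlike those of cluster 4, with a KRAB pattern in 5 of 16 and a median GC content of 64.8% in exons against 37.3% in cluster 4.

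ZNF787 was the most abundant gene of cluster 10 (chr19:56087366-56121280, minus strand). It had 1438 and 1640 counts in shCON and 1092 and 1187 in shZDHHC15. The groups were apart, with a log2 fold change of -0.56 (SE 0.113, adjusted p = 0.00109). ZNF71 had 327 and 375 counts in shCON and 225 and 261 in shZDHHC15, with a log2 fold change of -0.66 (SE 0.152, adjusted p = 0.00293). ZNF784 had 164 and 174 counts against 103 and 127 (log2 fold change -0.68), and ZNF581 had 442 and 470 against 306 and 364 (log2 fold change -0.57). All 4 genes had both shZDHHC15 samples below both shCON samples. ZNF579 was the exception in the cluster, with 317 and 353 counts in shCON and 505 and 557 in shZDHHC15 (log2 fold change 0.54, adjusted p = 0.00476).

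Cluster 2 (chr19:8509678-9793180, ZNF414 to ZNF846) had 4 lower genes of 11 tested (36.4%, against 20.3% of all genes) and none higher, of 13 listed. In 8 of the 11 (72.7%, against 35.3% of all genes) both shZDHHC15 samples lay below both shCON samples. ZNF699 had 161 and 137 counts in shCON and 60 and 63 in shZDHHC15, with a log2 fold change of -1.40 (SE 0.208, adjusted p = 8.93e-05). It was the largest fall among the genes named by rule, with little spread within either group. ZNF426 had 28 and 19 counts in shCON and 2 and 9 in shZDHHC15 (log2 fold change -2.19), and it was singled out after its values were seen. The cluster median of -0.24 was -0.13 without shZDHHC15 replicate 1 and -0.35 without shZDHHC15 replicate 2.

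**Figure D2:**
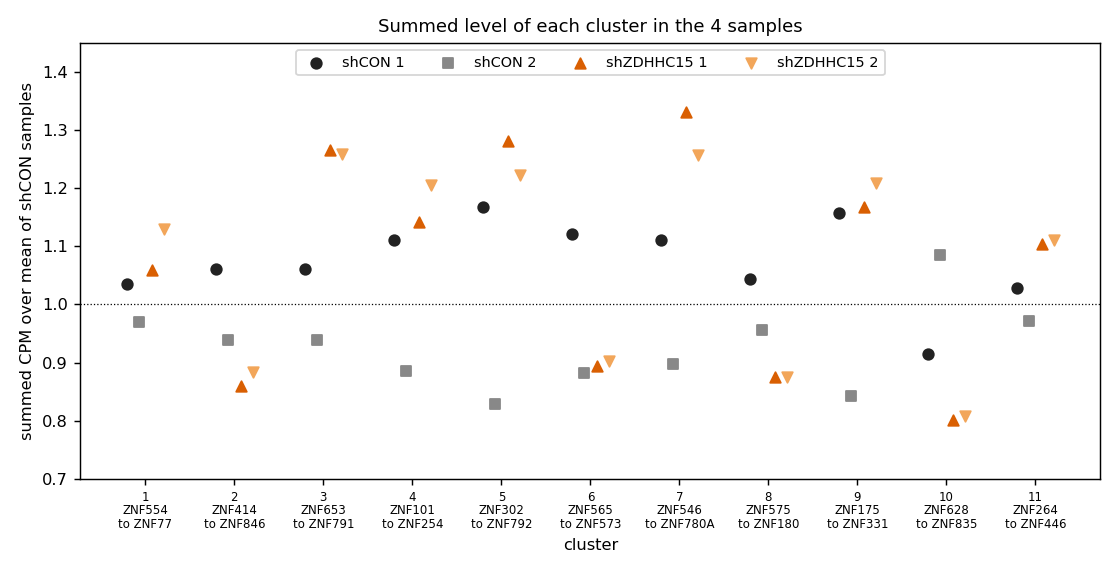
The summed CPM of each of the 11 clusters is plotted for the 4 samples, divided by the mean of the 2 shCON samples (dotted line at 1). Both shZDHHC15 samples lie below both shCON samples in clusters 2, 8 and 10, overlap with them in cluster 6 and lie above them in the other clusters, narrowly in clusters 1, 4 and 9, where shCON replicate 1 is close.

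Clusters 8 and 6 were mixed. In cluster 8 (chr19:43525497-44500524, ZNF575 to ZNF180) 1 gene of 20 tested was higher (5%, against 21.7% of all genes). The 4 lower genes (20%) were near the 20.3% of all genes. The summed level was 143 and 131 CPM in shCON and 120 CPM in both shZDHHC15 samples, whereas the median fold change of its genes was 0.17, and 0.06 without shCON replicate 2 and 0.05 without shZDHHC15 replicate 1. Here the sum and the median had opposite signs. ZNF45 had the smallest adjusted p of all members, with 440 and 400 counts in shCON and 218 and 235 in shZDHHC15. Its log2 fold change was -1.01 (SE 0.136, adjusted p = 3.52e-05). ZNF576 had 512 and 435 counts against 345 and 341 (log2 fold change -0.59). It lies over exons of SRRM5 on the same strand.

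Cluster 6 (chr19:36182060-37817300, ZNF565 to ZNF573) had 24 of 26 genes tested. Of these 1 was higher (4.17%, against 21.7% of all genes) and 3 were lower (12.5%, against 20.3%). Its median of -0.04 was 0.15 without shCON replicate 1 and -0.18 without shCON replicate 2, so that no direction could be given. ZNF850 fell from 177 and 147 counts to 121 and 102 (log2 fold change -0.66), and ZNF345 fell from 97 and 86 to 69 and 59 (log2 fold change -0.64). ZNF790, whose start lies beside ZNF345, rose from 110 and 77 counts to 156 and 176 (log2 fold change 0.71).

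The largest group, cluster 11 at the end of the long arm (chr19:57191500-58481230, ZNF264 to ZNF446), had 38 of 43 genes tested. Of these 4 were higher (10.5%, against 21.7% of all genes) and 2 were lower (5.26%, against 20.3%). In 20 genes (52.6%, against 37.2% of all genes) both shZDHHC15 samples lay above both shCON samples, with a cluster median of 0.28 that stayed between 0.19 and 0.26 when any 1 sample was left out. Its summed level was 289 and 273 CPM in shCON and 310 and 312 CPM in shZDHHC15. ZNF749 fell, with 182 and 117 counts against 86 and 97 (log2 fold change -0.83). Its call was lost without shCON replicate 1 (adjusted p = 0.0842). ZNF837 had 73 and 68 counts in shCON and 49 and 37 in shZDHHC15 (log2 fold change -0.83), and ZNF773 rose from 36 and 26 counts to 55 and 69 (log2 fold change 0.87).

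ZNF274, which sits in cluster 11 and recruits SETDB1 to the 3′ ends of zinc finger genes, was not called. It had 513 and 438 counts in shCON and 444 and 523 in shZDHHC15, and the groups overlapped. Its log2 fold change was -0.10 (SE 0.125, adjusted p = 0.556). In the same cluster ZNF154 had 3 and 1 counts in shCON and 12 and 11 in shZDHHC15, a ratio of 5.28 in counts per total count with a 95% counting interval of 1.8 to 21 (exact binomial). It was singled out after its values were seen, and the interval covers counting error only.

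Clusters 1 and 7 were small. In cluster 1 (chr19:2819874-2944971, ZNF554 to ZNF77) 1 of 5 genes was called, ZNF556, with 31 and 32 counts in shCON and 14 and 16 in shZDHHC15 (log2 fold change -1.19), a call that was kept in 1 of the 4 fits without 1 sample. In cluster 7 (chr19:39984134-40090938, ZNF546 to ZNF780A) 2 of 3 genes were tested and neither was called. Among the 11 isolated genes 9 were tested, with 4 lower (44.4%, against 20.3% of all genes) and none higher. ZNF114 was one of them, with 108 and 90 counts in shCON and 71 and 48 in shZDHHC15 (log2 fold change -0.85).

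**Figure D3:**
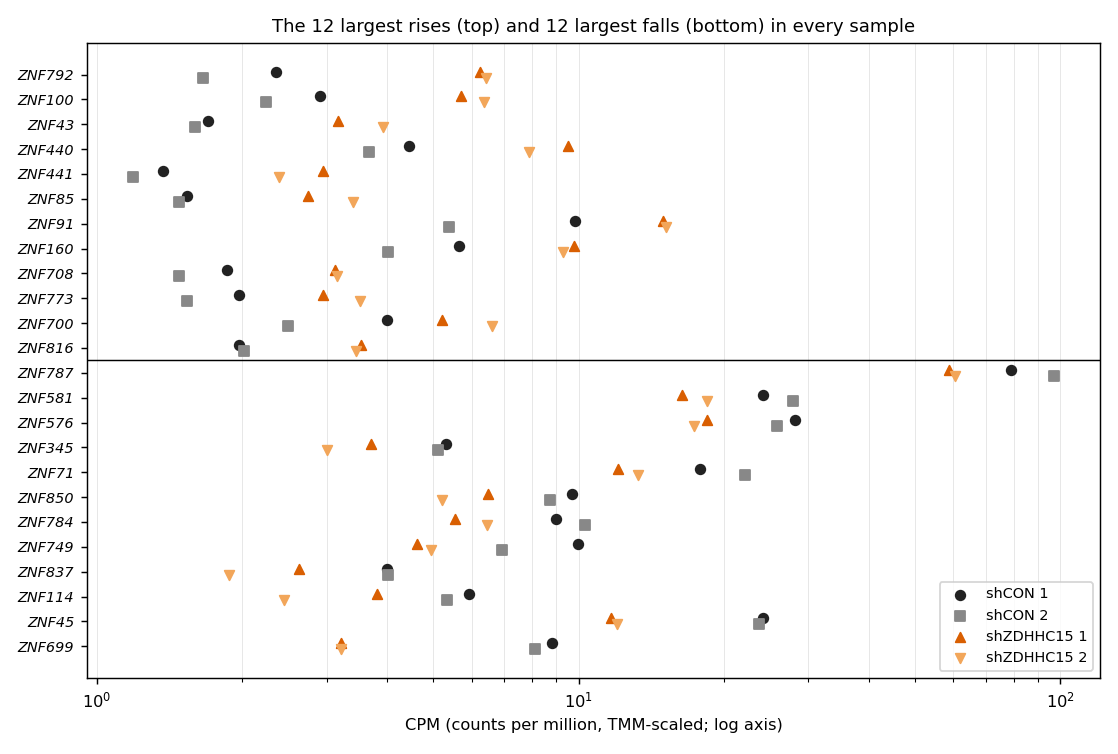
The level of the 12 largest rises (upper block) and 12 largest falls (lower block) is plotted in each of the 4 samples on a logarithmic axis of CPM. By the rule of choice the groups do not overlap for any gene, and shCON replicate 2 lies lowest for most of the rises.

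The genes with the highest level per length were all lower in shZDHHC15. Per kb of exon, ZNF146 stood first with a mean of 32.8 CPM per kb, followed by ZNF787 (20.1), ZNF574 (18.1), ZNF296 (14) and ZNF581 (12.5), while the lowest tested member, ZNF493, had 0.0515 CPM per kb. ZNF146 encodes a protein made of zinc fingers alone. It had 3139 and 2201 counts in shCON and 2200 and 2412 in shZDHHC15, or 172 and 130 CPM against 118 and 123 CPM. The shCON samples differed by more than the groups did at their nearest, with a log2 fold change of -0.33 (SE 0.118, adjusted p = 0.0355) that was -0.14 and not called without shCON replicate 1. ZNF574 had 1726 and 1630 counts against 1277 and 1542 (log2 fold change -0.38, adjusted p = 0.00839). ZNF296 had 479 and 515 counts against 346 and 444 (log2 fold change -0.46, adjusted p = 0.0149).

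The calls were also counted by KRAB domain. A KRAB pattern was found in the translated coding sequence of 207 members and not in 39. Of 159 tested genes with the pattern 23 were higher (14.5%) and 11 were lower (6.92%), against 21.7% and 20.3% of all genes. Their median log2 fold change was 0.23. Of 32 tested genes without the pattern 2 were higher (6.25%) and 15 were lower (46.9%), with a median of -0.26. The genes without the pattern also had a median GC content of 60.1%, against 42.1% in those with it, and a higher median level (18.3 against 5.4 CPM). The 12 largest rises all carried the pattern, and 6 of the 12 largest falls did. The pattern searches for a short run of residues, so that a member without it may still hold a divergent KRAB domain.

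Finger number varied from 0 to 39 with a median of 12.5. Among tested genes with up to 9 fingers 3 of 51 were higher (5.88%) and 13 were lower (25.5%), against 21.7% and 20.3% of all genes. With 10 to 15 fingers 15 of 93 were higher (16.1%) and 9 were lower (9.68%). With more than 15 fingers 7 of 47 were higher (14.9%) and 4 were lower (8.51%). The median fold changes were 0.03, 0.18 and 0.27, in that order.

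GC content of the exons moved with the fold changes, in these genes and over all genes. Tested genes were split into 3 bins of equal size by GC content over all genes (at 44.4% and 53.79%). In the lowest bin 21 of 123 members were higher (17.1%, against 25.7% of all genes in it) and 9 were lower (7.32%, against 14%). In the highest bin 1 of 23 was higher and 11 were lower (47.8%, against 27.6%). The median fold changes of members in the lowest, middle and highest bins were 0.17, 0.22 and -0.25, and those of all genes were 0.11, 0.01 and -0.09. Across the 191 members, which share the same 4 libraries, the fold change and GC content had a Pearson r of -0.25 and a Spearman rho of -0.21. Across 15810 tested genes these were -0.10 and -0.14.

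The deviations of the samples also differed by GC content. In the lowest GC bin the median deviation of members was 0.06 and -0.23 in shCON and 0.09 and 0.07 in shZDHHC15. In the highest bin it was 0.09 and 0.20 in shCON and -0.14 and -0.09 in shZDHHC15, so that both shCON samples lay above both shZDHHC15 samples. Over all tested genes it was 0.02 and -0.12 in shCON and 0.07 and 0.04 in shZDHHC15 in the lowest bin. In the highest bin it was -0.00 and 0.09 against -0.06 and -0.02. When each sample's trend on GC content was removed, 22 members were higher and 30 were lower, with a median of 0.08. The medians of clusters 4 and 9 were then 0.20 and 0.22, and that of cluster 10 was -0.28. The part of GC content in the differences between clusters was otherwise not tested.

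**Figure D4:**
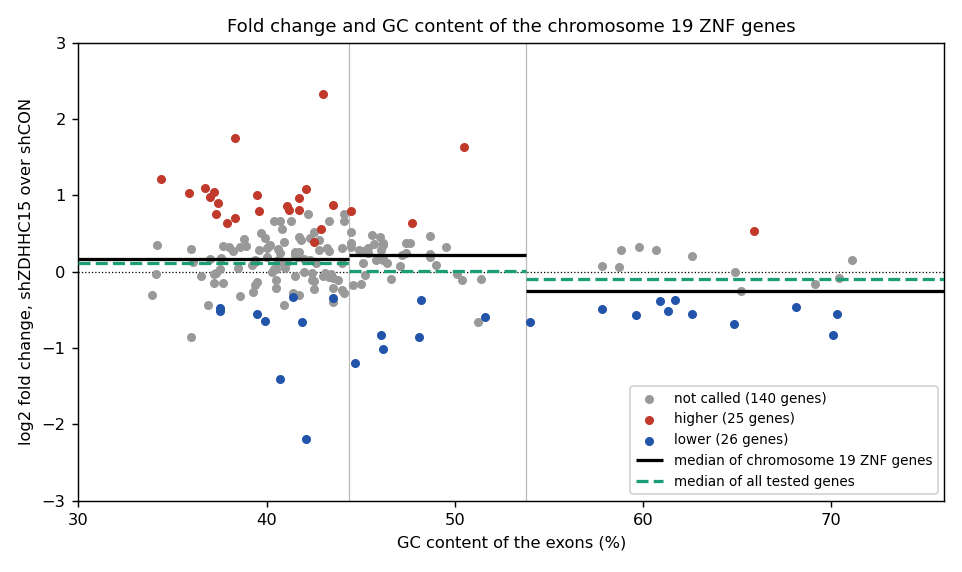
The log2 fold change of the 191 tested chromosome 19 ZNF genes is plotted against the GC content of their exons, coloured by call, with the median in each of 3 GC bins for these genes (black) and for all tested genes (green, dashed). Lower calls make up 11 of the 23 genes above 53.79% GC, and higher calls make up 21 of the 123 genes below 44.4%.

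Other genes in and around the clusters did not share the members' median. Of 110 further protein-coding genes inside the clusters 31 were tested, with 3 higher and 12 lower (38.7%) and a median log2 fold change of -0.20. Of the 1226 other protein-coding genes of chromosome 19, 755 were tested, with 101 higher (13.4%), 278 lower (36.8%) and a median of -0.19. ZNF genes of other chromosomes, 263 listed and 215 tested, had 50 higher (23.3%) and 24 lower (11.2%), with a median of 0.14. The members' share of higher calls (13.1%) was therefore nearer to that of other genes on the same chromosome. Their share of lower calls (13.6%) and their median (0.16) were nearer to those of ZNF genes elsewhere. A fold change above 0 was found for 62.8% of members, 63.3% of ZNF genes elsewhere and 34.3% of other chromosome 19 genes. No test of these differences was made.

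Genes listed from general knowledge as linked to the KRAB silencing machinery were changed in both directions. Of 30 cofactor genes, all tested, 11 were higher (36.7%) and 5 were lower (16.7%), against 21.7% and 20.3% of all genes. Without shZDHHC15 replicate 1 and likewise without a filter on low counts 7 were higher, and without shZDHHC15 replicate 2 there were 3 lower. Many of the 30 genes have long exons. In the third of all tested genes with the longest exons (over 6039 bases), 34.6% were higher and 12.5% were lower. The part of exon length in the cofactor counts was not tested. TRIM28, the scaffold itself, had 12916 and 12800 counts in shCON and 9552 and 10247 in shZDHHC15. It was lower in both shZDHHC15 samples, with a log2 fold change of -0.50 (SE 0.086, adjusted p = 2.97e-04). SETDB1, the methyltransferase that TRIM28 recruits, had 556 and 468 counts against 621 and 736. Its log2 fold change of 0.28 (SE 0.121, adjusted p = 0.074) did not pass the threshold, and it did pass when only library size was used for scaling (0.36, adjusted p = 0.0341) and without shCON replicate 1 (0.33, adjusted p = 0.0461).

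The cofactors that rose were spread over several complexes. CHD3, a NuRD remodeller, had 3314 and 3129 counts in shCON and 6820 and 6421 in shZDHHC15 (log2 fold change 0.92, SE 0.0929, adjusted p = 2.38e-06). The DNA methyltransferase genes DNMT1, DNMT3A and DNMT3B rose by 0.34, 0.92 and 0.63 on the log2 scale. MPHOSPH8, a subunit of the HUSH silencing complex, rose from 382 and 278 counts to 596 and 614 (log2 fold change 0.75). ATRX, TRIM24 and TRIM33 rose by 0.65, 0.80 and 0.53. The HP1 genes differed, since CBX5 was higher (0.35) and CBX1 was lower (-0.34). CBX5, and likewise the histone methyltransferase gene EHMT1 (0.30), turned to -0.01 and -0.18 when each sample's trend on gene length was removed, and were then not called. NRBF2 and SUV39H1 were also lower, with log2 fold changes of -0.55 and -0.44. The list of cofactors was drawn from general knowledge, and whether NRBF2 acts in this silencing was not tested.

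Counts of this family carry a further uncertainty, since its members resemble each other. For 89 members another gene held a near-identical stretch (150 bases or longer, identity 97% or higher), and exons overlapped another gene on the same strand for 82 and on the opposite strand for 78. Among members with a near-identical stretch 8 of 70 tested were called (11.4%), against 43 of 121 without one (35.5%). Of the genes described, ZNF700, ZNF773, ZNF850, ZNF576, ZNF426 and ZNF146 hold such a stretch. ZNF576, ZNF581, ZNF296, ZNF700, ZNF773, ZNF28, ZNF816 and ZNF749 overlap another gene on the same strand, where shared exons leave the source of a read uncertain. ZNF699, ZNF100, ZNF790, ZNF28, ZNF114 and ZNF146 overlap an antisense gene, and reads of these partners cannot be told apart if counting did not use the strand.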

How the data were processed

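Total RNA of 4 HCC1954 samples (shCON 1 and 2, shZDHHC15 1 and 2, grouped by the sample titles) was sequenced on libraries made with the NEBNext Ultra kit. The authors deposited 1 table of raw read counts per gene, not normalized, for 58735 genes. HISAT2, StringTie, SAMtools and hg38 are named in the submitters' processing notes, without versions. The counting tool, the annotation and strand use are not given in the sources used here. All 4 count columns were used.

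Genes were filtered with filterByExpr (15817 left) and fitted together in R 4.3.3 with edgeR 4.0.16 and limma 3.58.1 (TMM factors of 0.962 to 1.03, glmQLFit, glmQLFTest), with the group as the only term and Benjamini-Hochberg adjustment over all genes. A call is an adjusted p under 0.05. CPM values are TMM-scaled, and 3 counts correspond to 0.153 to 0.178 CPM. Within groups the counts differed by more than counting noise (chi-square per degree of freedom 8.32 and 6.79). This does not show whether they came from separate cultures. Exon GC content, coding sequences, KRAB and C2H2 patterns came from GENCODE release 29, near-identical stretches from BLAST 2.17.0, and promoters from RefSeq. Scripts were tested on simulated data.

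Members, lists and tests were chosen with earlier results of these data known. Genes named by rule were the 12 largest rises and 12 largest falls among calls without overlap of groups whose higher group averaged 50 counts or more, the 5 highest levels per kb, the smallest adjusted p in each cluster, ZNF274, TRIM28, SETDB1 and ZDHHC15. A part of the rule for genes at or under 3 counts in one group and at least 20 on average in the other named no gene. The values of 2 genes of the fixed lists are not reported here. Other genes are named to complete a cluster, a list or a set of promoters, after their values were seen. The alternatives were other scaling factors, removal of gene length and GC trends, DESeq2 1.42.0, other filters, the legacy quasi-dispersion, a replicate block, other gaps between clusters and leaving out each sample.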

Additional observations from a re-analysis of the deposited data

How the results depend on the processing

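With the DESeq2 Wald test 8 members were higher and 13 were lower, and 1 of the 51 main calls had no adjusted p there. Without a filter on low counts 13 were higher, 13 were lower and 7 cofactor genes were higher, and these fits tested 30168 genes. Over all genes 2436 were higher and 2593 were lower with the Wald test, and 2282 and 2350 without the filter. With library size only, 17 members were lower and the median of cluster 11 was 0.35, while the median of all genes moved from 0.02 to 0.09. With the gene length trend removed, the medians of clusters 2, 5 and 10 were -0.43, 0.39 and -0.25, CBX5 turned to -0.01 and EHMT1 to -0.18. With the GC trend removed, the median of cluster 11 was 0.24. With clusters separated at gaps of 250 kb (13 clusters), cluster 10 had a median of -0.53. At 1 Mb (10 clusters), clusters 10 and 11 merged, with a joint median of 0.19, so that the sign for cluster 10 turned.

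Leaving out 1 sample gave 10 to 33 higher and 14 to 20 lower members, a median from 0.03 to 0.21, 7 to 13 higher and 3 to 5 lower cofactor genes, and cluster medians from -0.35 to -0.13 (cluster 2), 0.09 to 0.64 (cluster 4), 0.18 to 0.54 (cluster 5) and 0.19 to 0.26 (cluster 11). The lone sample of a group was assumed to vary like the other group. The median over all tested genes was 0.01 without shCON replicate 1 and 0.00 without shCON replicate 2. It was 0.02 without shZDHHC15 replicate 1 and 0.01 without shZDHHC15 replicate 2. Higher cofactor genes numbered 7 without shZDHHC15 replicate 1, and lower ones numbered 3 without shZDHHC15 replicate 2.

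Of the 51 called members, none changed sign under any of the 14 settings in which it was fitted. The calls that remained were 50 with DESeq2 size factors, 49 with upper-quartile factors, 44 with either trend removed, 47 with at least 10 counts in every sample, 50 with the legacy quasi-dispersion and 42 with library size only, but 21 with the DESeq2 Wald test, 25 without a filter on low counts, 40 without shCON replicate 1, 27 without shCON replicate 2, 28 without shZDHHC15 replicate 1 and 30 without shZDHHC15 replicate 2. With the replicate number as a block 28 members were higher and 26 were lower, and all 51 calls remained. The deviations of same-numbered samples had a correlation of 0.0344, so that the numbers gave no sign of pairing. Causes of these shifts were not tested. Depth limits the 55 genes that were not tested and the lowest members, whose changes were not detectable here.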
